A study of Mus musculus with 8 samples.

Results

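The transcripts of mRNA-binding proteins that act on AU-rich elements and on stem-loops in the 3' UTRs of cytokine mRNAs were examined in resting bone marrow-derived mast cells (BMMCs). The set holds 10 names, of which Regnase1 is another name of Zc3h12a, so it comprises 9 genes of the 56748 gene IDs in the count tables: Zfp36, Zfp36l1, Zfp36l2, Zc3h12a, Rc3h1, Rc3h2, Elavl1, Khsrp and Tia1. The genes are found by name, and the set was put together when earlier results of these data were known. BMMCs were grown from the bone marrow of young adult C57BL/6 mice in IL-3 for at least 4 weeks. In the Mettl3-RNP group (4 libraries, genotype given as a knockout of Mettl3) the cells had been electroporated with Cas9 ribonucleoproteins cutting the Mettl3 gene. This was done in bulk and without selection, so the libraries also contain untargeted cells. In the Pulsed group (4 libraries, Mettl3 wild type) the cells had been mock transfected, so the control carried no Cas9 complex. Cells of both groups were unstimulated, and mRNA was sequenced after poly-A enrichment.

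Mettl3 is the catalytic subunit of the complex that deposits N6-methyladenosine (m6A) on mRNA. The proteins examined here read other features of the same 3' UTRs. Those of the tristetraprolin family bind AU-rich elements through a pair of zinc fingers and recruit the CCR4-NOT complex, which removes the poly-A tail. Roquin proteins recruit the same complex to stem-loops, and Regnase-1 cuts stem-loop mRNAs as an endonuclease. HuR binds AU-rich mRNAs and protects them from decay. In mast cells such elements control how long cytokine mRNAs persist after activation.

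On the genome (GRCm39), Zfp36 lies on chromosome 7 from 28076209 to 28079710, Zfp36l1 on chromosome 12 from 80154528 to 80160006 and Zfp36l2 on chromosome 17 from 84491132 to 84495382. All 3 lie on the minus strand, and their canonical transcripts have 2 exons each. On the minus strand are also Zc3h12a (chromosome 4, 125012216 to 125021711) and Rc3h2 (chromosome 2, 37258909 to 37313172), while Rc3h1 is on the plus strand (chromosome 1, 160733982 to 160802548). Elavl1 lies on chromosome 8 from 4332576 to 4375489 and Khsrp on chromosome 17 from 57328051 to 57338587, both on the minus strand, and Tia1 on chromosome 6 from 86381127 to 86410387 on the plus strand. Exons of Zfp36, Zfp36l2, Rc3h2, Elavl1 and Khsrp overlap exons of a gene on the opposite strand, by 106 to 604 bases, and those of Tia1 overlap Gm44790 on its own strand by 352 bases. Counts of these genes are less certain there, since the strand setting of the counting is not given in the sources used here.

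Most of these transcripts carry AU-rich motifs in their own 3' UTR. The 3' UTR of the canonical transcript of each gene (GENCODE M39, GRCm39, sense strand only) was searched for ATTTA, the core AU-rich pentamer, and for TATTTAT, a longer form that contains it. Matches of a motif were allowed to overlap. TATTTAT was found in 7 of 9 genes (not in Zc3h12a or Khsrp) and in 32.5% of the 11940 tested protein-coding genes with an annotated 3' UTR. The 3 tristetraprolin family transcripts each held 3 copies. The sites printed are the 3 of Zfp36, which lie close together, the first of Zfp36l1 and of Zfp36l2, one of the cluster in Elavl1, and for reference one in Tnf, a classical AU-rich cytokine mRNA. Each is 21 bases of the GRCm39 genome read 5′ to 3′ along the minus strand, and capitals mark the motif.
Zfp36 site 1, chr7:28076395-28076415: ggcccttTATTTATgacgact
Zfp36 site 2, chr7:28076380-28076400: acgacttTATTTATtgtatta
Zfp36 site 3, chr7:28076355-28076375: tttatagTATTTATatatatt
Zfp36l1 site 1, chr12:80155200-80155220: caaaacgTATTTATtgccaaa
Zfp36l2 site 1, chr17:84492346-84492366: tttaactTATTTATtatcttg
Elavl1 site 2, chr8:4335788-4335808: aattattTATTTATttattta
Tnf site 4, chr17:35418658-35418678: tattattTATTTATtatttat

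The number of copies depended on the length of the 3' UTR, so each gene was set against UTRs within 20% of its own length. In Zfp36 the 3 copies started 575, 590 and 615 bases after the stop codon of a 3' UTR of 774 bases. Of the UTRs of like length, 20.1% held at least 1 copy and 0.871% at least 3. In Elavl1 there were 9 copies in 7024 bases, 8 of them between 3795 and 3841 bases after the stop codon, and 0.521% of UTRs of like length held as many. Zfp36l1 and Zfp36l2, with 3 copies in 1835 and 2049 bases, were matched or exceeded by 4.14% and 4.54%. Both Roquin transcripts were long and closer to UTRs of their size: Rc3h2 held 4 copies in 6336 bases (8.63% held as many) and Rc3h1 held 2 in 7181 bases (40.7%). Tia1 held 1 copy, and 50.8% of UTRs of its length held at least 1. For comparison, Tnf held 8 copies in 764 bases (0.0801%). The pentamer ATTTA was present in 9 of 9 genes and in 72.7% of all genes. Among UTRs of like length it was present in 64.8% for Zfp36, 68.3% for Zc3h12a and 86.8% to 100% for the other 7 genes, so its presence is common at these lengths. GGACT, a common form of the m6A motif, was present in 8 of 9 genes (not in Zc3h12a) and in 66.9% of all (in 56.0% to 98.96% of UTRs of like length, by gene), at 0.878 per kb in the 9 genes and 0.951 per kb in all 3' UTRs. These are matches of letters in a window and not measured sites of binding or methylation.

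**Figure D1:**
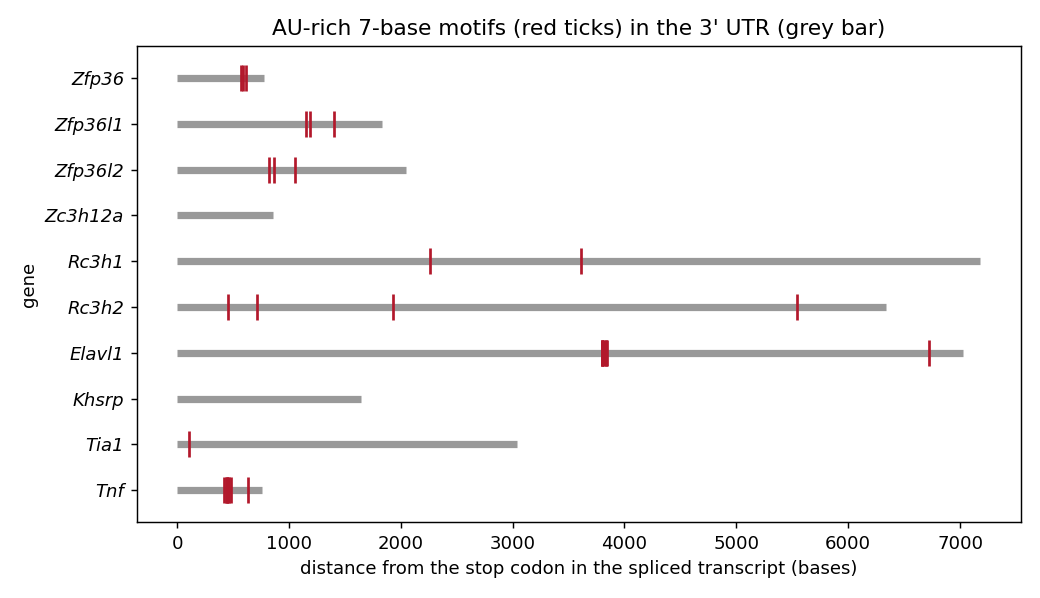
Position of the 7-base AU-rich motif in the 3' UTR of each of the 9 genes and of Tnf, drawn to scale. The grey bar is the 3' UTR from the stop codon (x axis, bases of spliced transcript) and each red tick is a match. The 3 matches of Zfp36 lie close together, those of Zfp36l1 and Zfp36l2 are farther apart, 8 of the 9 matches of Elavl1 form a cluster, and Zc3h12a and Khsrp have none.

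The libraries held 32643260 to 45324826 counts, and the 9 genes had 156 to 41729 counts each in a library, so counting error is small beside the spread between libraries. Mettl3 itself was lower in 4 of 4 pairs, at 8.89 ± 3.05 CPM (SD, n = 4) in Mettl3-RNP and 22.02 ± 7.29 CPM in Pulsed libraries (log2 fold change -1.30, SE 0.109, adjusted p 0.00543 by edgeR). CPM is the count per 1000000 of the TMM-scaled library size. Of 14942 genes tested, 559 (3.74%) had an adjusted p of 0.05 or less, 351 higher and 208 lower in Mettl3-RNP cells. This count was 26 without replicate 2 and 0 without a block for the replicate number. The 13 mast cell markers summed to 42206 to 65582 CPM in every library, although Tpsab1 and Mrgprb1 were at most 1.32 CPM. Of the 11 mast cell markers tested, 6 were fitted higher in Mettl3-RNP cells (median log2 fold change 0.01), 0 rose and 1 fell, the protease gene Cpa3 (-0.37, adjusted p 0.0328 by edgeR). Of 6 basophil markers 2 were fitted higher, 0 rose and 2 fell, Il18rap (-0.79, adjusted p 0.0324) and Ifitm1 (-0.60, 0.0471). Of the 6 macrophage markers tested 3 were fitted higher, 0 rose and 1 fell, Adgre1 (-1.13, adjusted p 0.0435), at no more than 3.18 CPM. The macrophage marker with the largest fitted change was Cd68 (1.63, adjusted p 0.142). Basophil markers summed to 3548 to 5183 CPM, more in every library than any other marker list but that of mast cells. Macrophage markers summed to 77.9 to 411 CPM, mainly Cx3cr1, and those of neutrophils, T and B cells and erythroid cells to at most 21.3 CPM. S100a8, S100a9, Elane, Camp, Cd3d, Cd8a and Ms4a1 had 0 counts in every library. In bulk RNA, fewer cells of a type and less RNA per cell cannot be told apart. Receptor genes of the olfactory and vomeronasal families reached 287 counts per 1000000 in Mettl3-RNP 2 and 48.3 to 167 in the others, here of the library total without TMM scaling.

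To ask which of the 9 transcripts was the most abundant in these mast cells, levels were compared per length as RPKM (CPM per kb of exon). Zfp36l2, a tristetraprolin family member, had the highest mean, 190 ± 75.1 RPKM (SD, n = 4) in Pulsed cells, with its lowest library at 100.2. Its range did not overlap that of the gene next in the order of means in either group, but in Pulsed cells it overlapped that of Zfp36, which reached 101.03 RPKM in Pulsed 3. Within each library Zfp36l2 was the highest of the 9 genes. Below it came Khsrp (44.2 ± 3.92), Zfp36l1 (42.2 ± 16.4) and Zfp36 (35.4 ± 45.2), whose ranges overlapped each other. The remaining genes were lower, with Elavl1 at 7.51 ± 1.06, Rc3h1 at 7.20 ± 1.69, Zc3h12a at 5.82 ± 5.95, Rc3h2 at 3.35 ± 0.811 and Tia1 at 2.93 ± 0.563 RPKM, and each of these overlapped its neighbour. In Mettl3-RNP cells Zfp36l2 was again first (153 ± 44.95 RPKM) and Rc3h2 (3.30 ± 0.634) and Tia1 (2.94 ± 0.908) last. The order of the lower genes depended on the length used. Divided by the longest annotated transcript in place of all exons, Tia1 was at 10.3 and Rc3h2 at 7.09 RPKM in Pulsed cells, and Zc3h12a (6.47) was last. By that length the range of Zfp36l1 also lay clear of the gene next in order, Elavl1, in Pulsed cells. Within the tristetraprolin family, Zfp36l2 contributed 73.7% ± 7.52 of the summed RPKM in Pulsed and 70.7% ± 4.16 in Mettl3-RNP cells (SD, n = 4). Zfp36, which encodes tristetraprolin itself, contributed from 0.993% in Pulsed 4 to 23.5% in Pulsed 3. The share of Zfp36l2 differed by -2.98 percentage points between the groups and was lower in 3 of 4 pairs (exact two-sided sign-flip permutation test, p = 0.25).

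**Figure D2:**
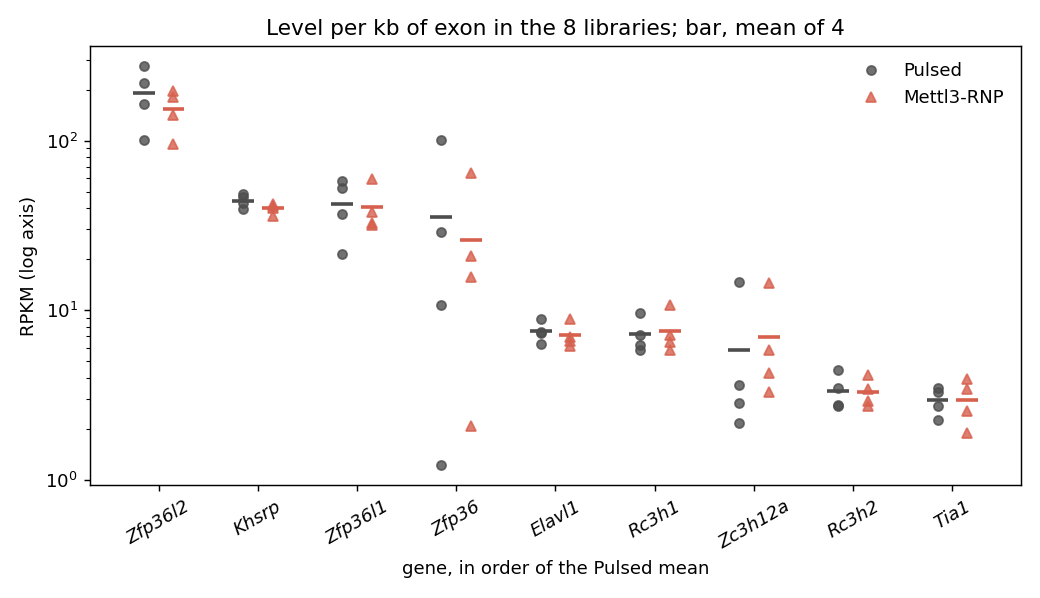
Level of each gene per kb of exon in the 8 libraries, in RPKM on a log axis. Points are single libraries (circles, Pulsed; triangles, Mettl3-RNP) and bars the mean of 4. Zfp36l2 has the highest mean in both groups, although Zfp36 in Pulsed 3 (101.03 RPKM) reaches the level of Zfp36l2 in Pulsed 4 (100.2 RPKM). Zfp36 spreads over the widest range, and Khsrp over the narrowest.

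The question put to each gene was whether its transcript changed when Mettl3 was depleted. None of the 9 passed an adjusted p of 0.05 in the paired edgeR quasi-likelihood test, against 3.74% of all genes tested, and none passed with a fold of at least 1.5 (2.06% of all genes). At an unadjusted p under 0.05 there were 2 of 9, Zfp36l2 and Zc3h12a, and 22.5% of all genes. DESeq2 called 1 of 9 (Zfp36l2) and 9.09% of all genes, and limma-voom called 0 of 9 and 4.3% of all genes. The levels of the groups overlapped for 9 of 9 genes, while 3.23% of all genes did not overlap. The median log2 fold change was -0.02 over the 9 genes and -0.0013 over all genes tested, and the median size without sign was 0.0575 and 0.180. The genes were not matched for level, so these sizes do not show that the 9 genes are steadier than others. For 8 of 9 genes the 95% interval of the change lay within 1.5-fold in either direction, and for 4 of 9 (Rc3h1, Rc3h2, Elavl1 and Tia1) within 1.2-fold. The share of all genes with such intervals was not counted. The intervals rest on a spread that edgeR moderates over genes. Single pairs reached 1.69-fold for Zfp36 and 1.53-fold for Zfp36l1, and at most 1.405-fold for the others of these 8. With 4 pairs the exact sign-flip permutation test cannot give less than 2 of 16 (p = 0.125), and no gene can pass 0.05 by it.

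**Figure D3:**
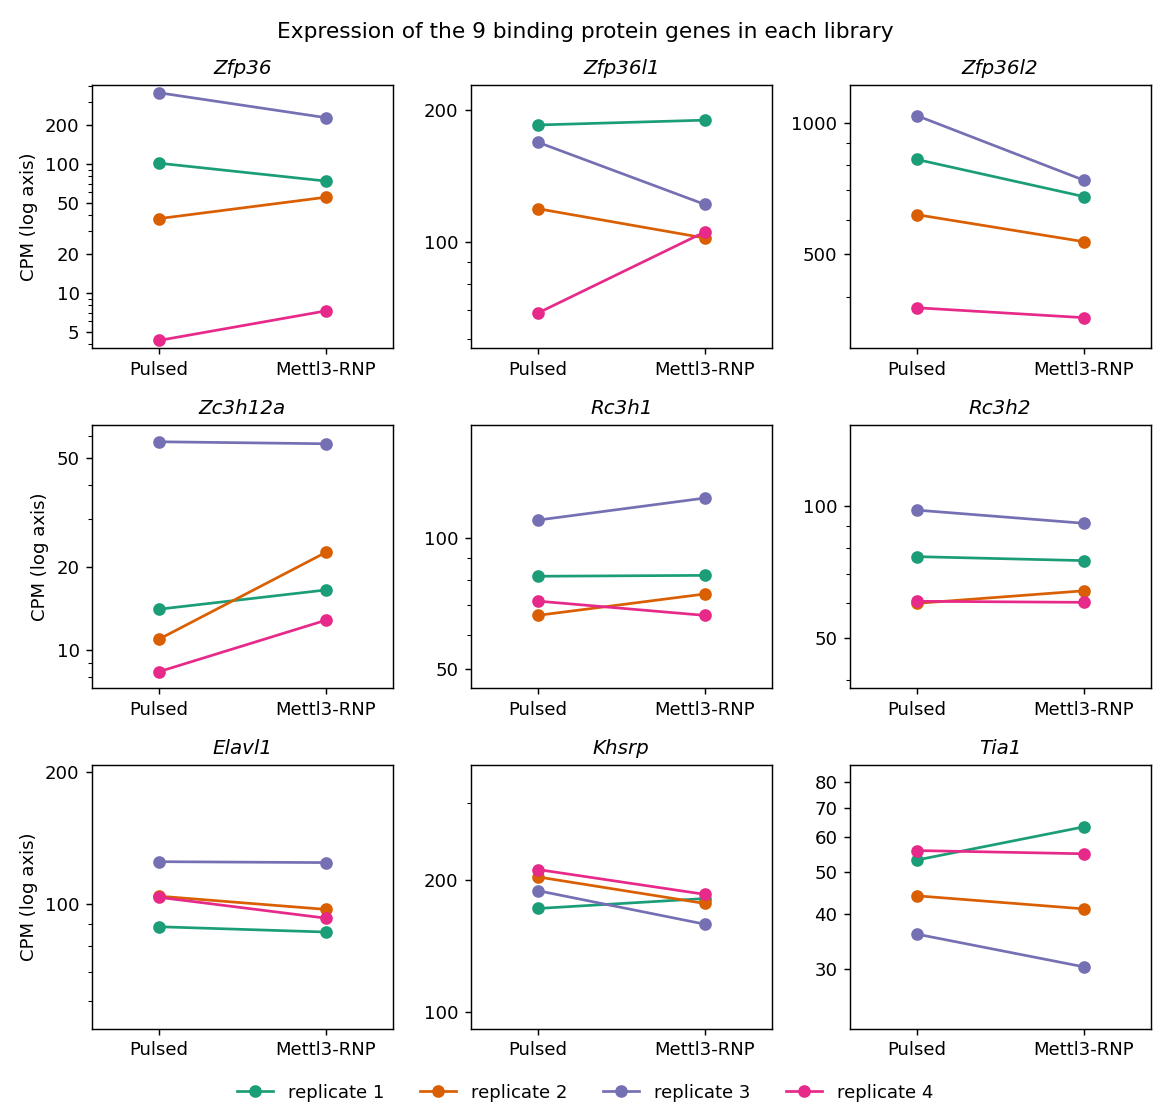
Expression of the 9 genes in the 8 libraries, in CPM on log axes whose span differs between panels. Each line joins the Pulsed and Mettl3-RNP libraries of one replicate number. The lines of a panel mostly stay apart from each other, and Zfp36l2 and Elavl1 are the genes whose 4 lines all slope down.

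Zfp36l2 was the member of the tristetraprolin family with the most uniform difference. It was at 677, 534, 738 and 358 CPM in Mettl3-RNP libraries 1 to 4 and at 824, 616, 1038 and 377 CPM in Pulsed libraries 1 to 4. The Mettl3-RNP library lay below its Pulsed partner in each pair, yet the groups overlapped because the replicates themselves spanned a wider range. Of the 9 genes, 2 (Zfp36l2 and Elavl1) were lower in 4 of 4 pairs, as were 16% of all genes tested. The log2 fold change was -0.26 (SE 0.083, 95% interval -0.46 to -0.07), with p = 0.0135 before and 0.115 after adjustment by edgeR (exact sign-flip permutation test, p = 0.125). DESeq2 gave -0.26 with an adjusted p of 0.0368, so the call depends on the test. Zfp36l2 overlaps the lncRNA Gm36279 on the opposite strand by 106 bases.

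Zfp36, the immediate early member of the family, was at 73.3, 54.9, 227 and 7.24 CPM in Mettl3-RNP libraries 1 to 4 and at 101, 37.5, 354 and 4.27 CPM in Pulsed libraries 1 to 4. Both libraries of replicate 3 were the highest and both of replicate 4 the lowest. The paired log2 differences were -0.46, 0.55, -0.64 and 0.75, which gave a fitted change of -0.02 (SE 0.227, 95% interval -0.54 to 0.51, adjusted p 0.978 by edgeR). This interval allows a fold from 0.687 to 1.42. Without the replicate block the fitted change was -0.45 (adjusted p 0.999).

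Zfp36l1, the other close relative, was at 190, 102, 122 and 105 CPM in Mettl3-RNP libraries and at 185, 119, 169 and 68.8 CPM in Pulsed libraries. It was higher in 2 of 4 pairs, with the largest difference in pair 4 (0.62) and the most negative in pair 3 (-0.47). The fitted log2 change was -0.01 (SE 0.158, 95% interval -0.38 to 0.35, adjusted p 0.972 by edgeR). Pairs of Zfp36 and of Zfp36l1 thus differed in sign, and those of Zfp36l2 did not.

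Among the stem-loop factors, Zc3h12a, which encodes Regnase-1, had the largest fitted change of the 9 genes in the paired edgeR fit of all libraries. It was at 16.6, 22.7, 56.3 and 12.9 CPM in Mettl3-RNP libraries 1 to 4 and at 14.1, 10.97, 57.2 and 8.35 CPM in Pulsed libraries 1 to 4. It was higher in 3 of 4 pairs, and in pair 3, where it was most abundant, the libraries were nearly equal (-0.02). The log2 fold change was 0.46 (SE 0.166, 95% interval 0.07 to 0.84), p = 0.0254 before and 0.154 after adjustment by edgeR (exact sign-flip permutation test, p = 0.25). The interval reaches a fold of 1.79, the widest of the 9 upwards. Pair 2 contributed most (1.04), and without replicate 2 the change was 0.26 (adjusted p 0.436), smaller in size than that of Zfp36l2 (-0.29). Without the replicate block the changes of Zfp36 (-0.45) and Zfp36l2 (-0.31) were also larger in size than that of Zc3h12a (0.26). When every gene with at least 1 count was tested, the change of Zc3h12a was nearly the same (0.48) and the adjusted p was 0.0212. That fit took in 33650 genes, many with few counts, so its p-value should be read with caution.

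Rc3h1 and Rc3h2, which encode Roquin-1 and Roquin-2, differed little between the groups. Rc3h1 was at 82.0, 74.3, 123 and 66.4 CPM in Mettl3-RNP libraries and at 81.6, 66.4, 109.7 and 71.6 CPM in Pulsed libraries (log2 fold change 0.06, 95% interval -0.11 to 0.23, adjusted p 0.707 by edgeR). Rc3h2 was at 75.0, 64.0, 91.3 and 60.2 CPM against 76.6, 59.9, 97.9 and 60.6 CPM (-0.01, -0.17 to 0.14, adjusted p 0.945). In both genes replicate 3 was highest in each group. Rc3h1 made up 68.3% ± 0.927 of the summed RPKM of the pair in Pulsed and 69.3% ± 2.04 in Mettl3-RNP cells (SD, n = 4), and the difference of 0.982 percentage points was within the spread (exact sign-flip permutation test, two-sided, p = 0.5). With lengths of the longest transcript these shares were 51.1% and 52.3%.

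Elavl1, which encodes the stabilising protein HuR, was at 86.3, 97.2, 124 and 92.8 CPM in Mettl3-RNP libraries and at 88.7, 104, 125 and 103.6 CPM in Pulsed libraries. All 4 pairs were slightly lower, by at most 0.16 on the log2 scale. The fitted change was -0.08 (SE 0.066, 95% interval -0.23 to 0.08, adjusted p 0.552 by edgeR). Its exons overlap those of Ccl25 on the opposite strand over 604 bases.

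Khsrp, which encodes a KH domain protein that promotes decay of AU-rich mRNAs, had the steadiest level of the set. It was at 182, 177, 159 and 186 CPM in Mettl3-RNP libraries and at 172, 204, 189 and 212 CPM in Pulsed libraries. It was higher in pair 1 and lower in the other 3 pairs (log2 fold change -0.14, 95% interval -0.32 to 0.04, adjusted p 0.328 by edgeR). Without replicate 1 the change was -0.25 (adjusted p 0.249). Tia1, which encodes a stress granule protein that represses translation of AU-rich mRNAs, was at 63.3, 41.1, 30.3 and 54.9 CPM against 53.2, 44.0, 36.0 and 55.9 CPM, and here both libraries of replicate 3 were the lowest. The fitted change of Tia1 was -0.03 (95% interval -0.24 to 0.18, adjusted p 0.893 by edgeR).

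**Figure D4:**
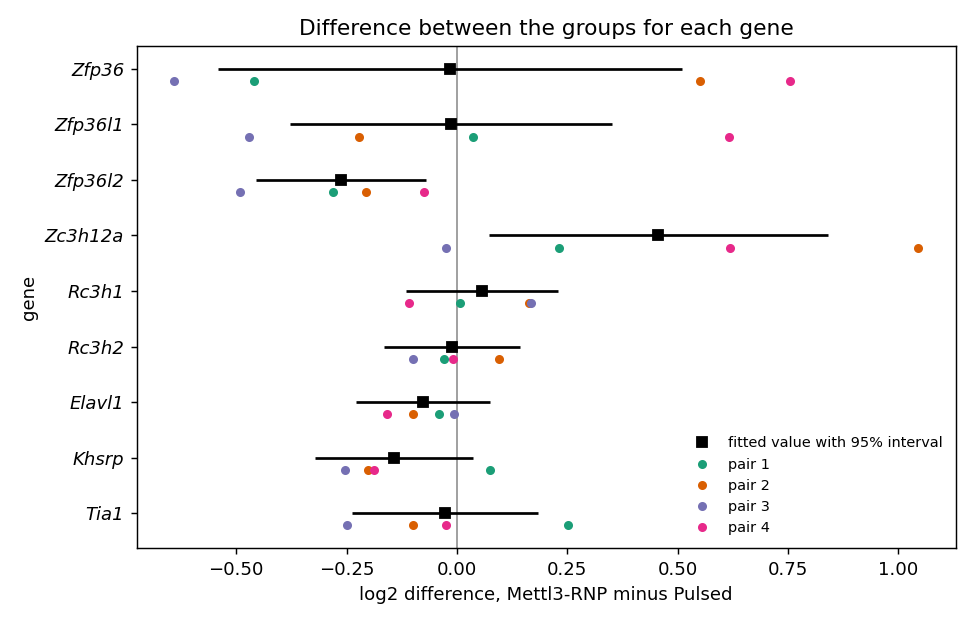
Log2 difference between Mettl3-RNP and Pulsed for each gene. Squares are the fitted values with 95% intervals (edgeR, n = 4 pairs) and coloured points the 4 single pairs. The intervals of Zfp36l2 (-0.46 to -0.07) and Zc3h12a (0.07 to 0.84) leave out 0 before adjustment over all genes, and the pairs of Zfp36 and Zfp36l1 lie on both sides of 0.

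For most of these genes the replicate number, and not the treatment, went with the level. Libraries of the same number came from the same mouse as far as the series text allows this to be inferred. Between 81.5% (Zfp36l1) and 98.2% (Rc3h2) of the sum of squares of log2 CPM lay between replicate numbers for 8 of 9 genes, and 39.7% for Khsrp. The median over all genes tested was 78.3%. In Pulsed libraries the highest level of Zfp36 was 82.8 times the lowest, and in Mettl3-RNP libraries 31.3 times. The same ratios were 6.85 and 4.38 for Zc3h12a and 2.75 and 2.06 for Zfp36l2. They were 1.23 and 1.17 for Khsrp. By the mean of both libraries, Zfp36, Zfp36l2, Rc3h1 and Rc3h2 had the order of replicates 3, 1, 2 and 4 from high to low. Zc3h12a and Elavl1 were also highest in replicate 3, Zfp36l1 and Tia1 in replicate 1, and Khsrp in replicate 4.

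Immediate early genes, transcripts that rise within minutes of stimulation, varied along with several of these genes. The 22 genes of the list summed to 3552, 7398, 26363 and 972 CPM in Mettl3-RNP libraries 1 to 4 and to 4001, 4777, 23300 and 764 CPM in Pulsed libraries 1 to 4. Replicate 3 was the highest and replicate 4 the lowest in both groups, as for Zfp36, Zfp36l2 and Zc3h12a. The part of this in the levels of the binding proteins was not tested. Between the groups, 0 of the 21 immediate early genes tested passed an adjusted p of 0.05 in edgeR (3.74% of all genes). An unadjusted p under 0.05 was found for 4 (19.0%, against 22.5%), and DESeq2 called 1 (9.09% of all genes). The fitted change was positive for 18 of the 21 (85.7%, against 49.8% of all genes), with a median log2 fold change of 0.23.

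**Figure D5:**
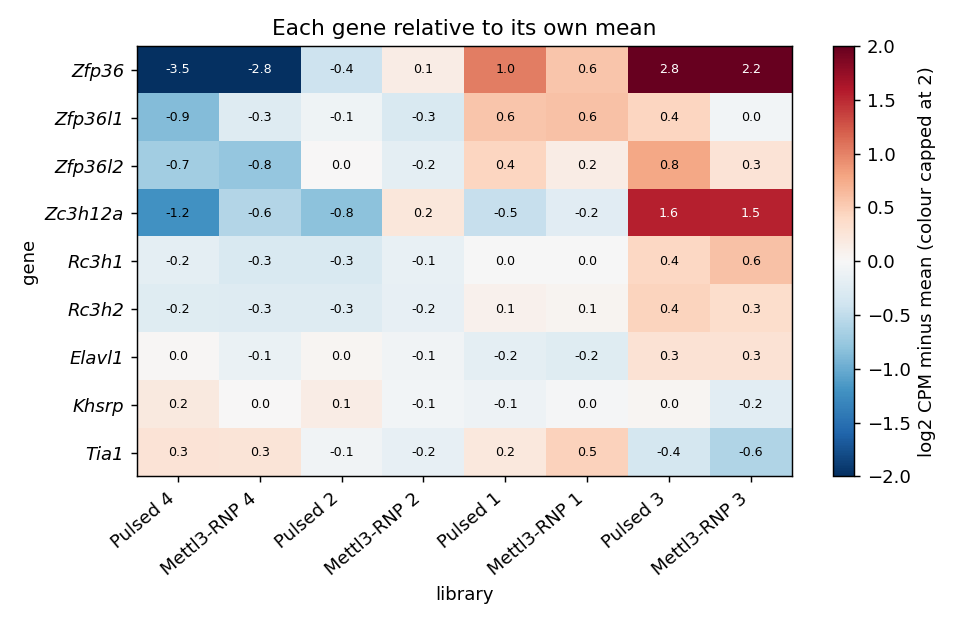
Log2 CPM of each gene minus its mean over the 8 libraries, with libraries placed by replicate number. Colour stops at 2 in either direction and the value is written in each cell. Libraries of one number resemble each other, Zfp36 and Zc3h12a are high in replicate 3 and low in replicate 4, and Khsrp stays nearest to its mean.

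Across the 8 libraries the log2 CPM of Zfp36 followed that of Zfp36l2 (Pearson r = 0.95), and Rc3h1 followed Rc3h2 (0.95) and Zc3h12a (0.91). Tia1 ran against Elavl1 (-0.87) and Zc3h12a (-0.82). These values describe libraries that come in pairs of one replicate number. Of 10737 protein-coding genes averaging 1 CPM or more, those most like Zfp36 by Pearson r were Zfand3 (0.988), Mau2 (0.985) and the immediate early gene Ier2 (0.984). Zfp36l1 was most like Gadd45g (0.974), the mast cell growth factor receptor Kit (0.944) and Nrbp2 (0.930). The nearest patterns to Zfp36l2 were those of Rhoj, Mdfic and Il2rg (0.979 to 0.987), and to Zc3h12a those of Atg16l1, Nacc1 and Hivep1 (0.989 to 0.992). Rc3h1 was nearest to Zfp51, Cbfa2t2 and Sirt1, and Rc3h2 to Zup1, Med13 and Ttc5 (0.984 to 0.992 for the 6 genes). For Elavl1 they were Xpo4, Coq7 and Fcf1 (0.994 to 0.995), for Khsrp Slc25a1, Copz1 and Cdk16 (0.95 to 0.97), and for Tia1 Hyal1, Primpol and Zfp961 (0.989 to 0.994).

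The proteins that work with these binders were examined as lists. Of 28 other binders of cytokine mRNAs, 23 were tested and 0 passed an adjusted p of 0.05 in edgeR (3.74% of all genes). An unadjusted p under 0.05 was found for 4 (17.4%, against 22.5% of all genes), DESeq2 called 1 (9.09% of all genes) and limma-voom 0 (4.3%). The lowest adjusted p was 0.0953 for Hnrnpab, a nuclear ribonucleoprotein, and the median log2 fold change was -0.07. Of the family relatives Zfp36l3, Zc3h12d, Elavl2, Elavl3 and Elavl4, none had enough counts to be tested. Of 39 tested subunits and partners of the deadenylation, decapping and exosome machinery, 1 fell and 0 rose (2.56%, against 3.74% of all genes), with a median of -0.07. This was Exosc5, which encodes a subunit of the RNA exosome and overlaps exons of Tmem91 on the opposite strand over 3204 bases. It was at 17.5, 25.9, 26.0 and 20.3 CPM in Mettl3-RNP and at 23.7, 30.8, 34.7 and 25.9 CPM in Pulsed libraries (log2 fold change -0.36, SE 0.078, adjusted p 0.0485 by edgeR). The groups overlapped although each pair was lower, and the call was lost when any 1 of the replicates was left out, while the log2 fold change stayed between -0.41 and -0.35. Of 23 tested regulators of the binders, such as the p38 kinase pathway that phosphorylates tristetraprolin, 0 passed in edgeR (3.74% of all genes) and 7 had an unadjusted p under 0.05 (30.4%, against 22.5%). DESeq2 and limma-voom called 1 each (9.09% and 4.3% of all genes). The lowest adjusted p in edgeR was 0.0538, for the 14-3-3 protein gene Ywhaz (-0.33).

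Known target mRNAs of the binders were the last group. Of 41 listed, 29 were tested, 1 rose and 1 fell in edgeR (6.90%, against 3.74% of all genes), 12 had an unadjusted p under 0.05 (41.4%, against 22.5%), and the median log2 fold change was 0.13. Plau, which encodes the urokinase-type plasminogen activator, rose in the Mettl3-RNP group to a mean of 174 ± 52.1 CPM against 115 ± 37.5 CPM (SD, n = 4), a log2 fold change of 0.61 (SE 0.131, adjusted p 0.0479 by edgeR). It was at 169, 188, 107.1 and 233 CPM in Mettl3-RNP and at 159, 106, 69.4 and 125 CPM in Pulsed libraries, higher in 4 of 4 pairs. Pim3, a serine/threonine kinase, fell from 98.9 ± 104 to 72.4 ± 79.7 CPM (log2 fold change -0.49, SE 0.071, adjusted p 0.0184 by edgeR). Its Mettl3-RNP values were 25.0, 61.3, 188 and 15.1 CPM and its Pulsed values 38.5, 87.3, 249.7 and 20.1 CPM, lower in 4 of 4 pairs. Without replicate 2, 0 of the list passed in edgeR (Plau 0.53, adjusted p 0.187; Pim3 -0.49, 0.0966). Plau also lost its call without replicate 3 (0.61, adjusted p 0.0884 by edgeR) or 4 (0.53, 0.0784). Pim3 lost it without replicate 1 (-0.48, adjusted p 0.0620) or 4 (-0.50, 0.0610). DESeq2 called 7 of the list and 9.09% of all genes.

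The cytokine mRNAs that carry such elements were low or uneven in these resting cells. Tnf was at 11.4, 41.7, 594 and 6.78 CPM in Mettl3-RNP and at 15.2, 8.25, 97.1 and 4.96 CPM in Pulsed libraries. It was higher in 3 of 4 pairs and did not pass (log2 fold change 1.36, SE 0.496, adjusted p 0.155 by edgeR). Tnf passed without replicate 1 (1.90, adjusted p 0.0388) and when every gene with at least 1 count was tested (1.35, adjusted p 1.3e-18). The latter fit took in 33650 genes, many of them below the filter on low counts. Its change of Tnf was nearly the same, so its p-value should be read with caution. Leaving out 1 replicate gave 0.80 (without replicate 3) to 1.90, and the fit without the replicate block gave 2.38 (adjusted p 0.999). Il6 was at 102, 153, 393 and 53.7 CPM against 129, 126, 288 and 63.0 CPM (0.04, adjusted p 0.893), higher in 2 of 4 pairs. Il13 was at 10.5, 16.9, 30.2 and 1.88 CPM against 12.9, 4.88, 21.2 and 1.89 CPM (0.53, adjusted p 0.364), also higher in 2 of 4 pairs. Its change was 0.081 without replicate 2 and 0.81 without replicate 1, neither past the threshold. It passed only when every gene with at least 1 count was tested (0.55, adjusted p 0.0218), and the same caution holds. For these cytokines replicate 3 was the highest of each group and replicate 4 the lowest. Il3 and Csf2 were at most 0.468 and 0.268 CPM and did not pass the filter on low counts.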

How the data were processed

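Total RNA of 8 BMMC cultures was sequenced as poly-A libraries (Tecan Revelo, paired-end). The authors checked reads with FastQC 0.11.9, mapped them to GRCm39 with HISAT2 2.2.1 and assigned them to Ensembl genes with featureCounts 2.0.1, and the deposited values are whole-number counts without normalization. Strand and multimapping settings are not given in the sources used here, and the batch correction named in the study's methods is not visible in the deposited counts. Gene names came from GENCODE M39, which named 56017 IDs (98.7%), and unnamed IDs held at most 0.113% of the counts.

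Genes passing filterByExpr (14942) were scaled by TMM and tested by glmQLFit and glmQLFTest in edgeR 4.0.16 (R 4.3.3) with a block for replicate number and Benjamini-Hochberg adjustment over all genes tested. Standard errors came from the test statistic. A prior count of 2 entered log2 CPM. The numbers were taken as pairs because the series text names 4 mice for 8 samples and because libraries sharing a number deviated from the mean of their group together (Pearson r of 0.825, 0.489, 0.879 and 0.765, against at most 0.183 for other libraries, over 11985 genes). Libraries of a group differed beyond sampling noise (chi-square per degree of freedom of 59.8 to 316). No molecular identifiers were used, so reads are not independent molecules.

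Alternatives used DESeq2 1.42.0, limma 3.58.1, other scalings, filters, no block and each replicate left out. The code was tested on simulated data. Members and lists were chosen with earlier results of these data known. The text names Mettl3, the 9 genes, listed genes at an adjusted p of 0.05 or less, 5 cytokines, the 3 genes most like each member and markers at 0 counts. Markers, untested relatives, and genes with the lowest adjusted p of a list were singled out once values were known.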

Additional observations from a re-analysis of the deposited data

Results flagged for a closer look

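Zc3h12a was at 57.2 CPM in Pulsed 3, far from the other Pulsed libraries, which lay between 8.35 and 14.1 CPM. The gap to the nearest library took 0.883 of the range of the group, above the limit that Dixon's test sets for 4 samples. Chance alone passes this limit in about 1 of 20 groups of normally distributed values, and 18 groups were examined. The test was run on CPM and not on log2 CPM, so the flag holds for that scale only. Its partner Mettl3-RNP 3 was also the highest of its group (56.3 CPM, 0.774 of the range). Without replicate 3 the log2 fold change of Zc3h12a was 0.63 with an adjusted p of 0.0884 by edgeR. The sum of immediate early genes was highest in the same libraries, at 23300 CPM in Pulsed 3 and 26363 CPM in Mettl3-RNP 3, and its part in the level of Zc3h12a was not tested.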

How the results depend on the processing

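Of 117 values of the 9 genes over 13 alternatives, 100 kept their direction and stayed short of the threshold, 2 passed it (Zfp36l2 with DESeq2, Zc3h12a with every gene of at least 1 count) and 15 changed sign. Without the replicate block Tia1 was 0.0045, and with DESeq2 Zfp36 was 0.052. With library size alone Zfp36 was 0.018, Zfp36l1 0.020, Rc3h2 0.022 and Tia1 0.0047. With every gene of at least 1 count Zfp36 was 0.026, Zfp36l1 0.0037 and Rc3h2 0.0052. Leaving out 1 replicate gave ranges of -0.22 to 0.22 for Zfp36 (0.22 without replicate 3, 0.13 without replicate 1), -0.21 to 0.14 for Zfp36l1 (0.14 without replicate 3), -0.053 to 0.017 for Rc3h2, -0.16 to 0.041 for Tia1 and -0.10 to 0.14 for Il6. The ranges that kept their sign were -0.31 to -0.19 for Zfp36l2, 0.26 to 0.63 for Zc3h12a, 0.016 to 0.12 for Rc3h1, -0.12 to -0.038 for Elavl1, -0.25 to -0.11 for Khsrp, 0.80 to 1.90 for Tnf and 0.081 to 0.81 for Il13.

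Fits without the replicate block called 0 genes at an adjusted p of 0.05, 0 with the fold of 1.5, 0 decay enzymes and 0 target mRNAs. DESeq2 gave 1358 genes, 503 with the fold, 1 of the 9 genes, 1 other binder, 1 regulator, 7 target mRNAs and 1 immediate early gene. With limma-voom, and with another estimate of the spread in edgeR chosen after seeing the data, 1 regulator passed. DESeq2 size factors and library size alone each left 0 decay enzymes. With every gene of at least 1 count, 993 genes passed, 579 with the fold, and 1 of the 9 genes, 0 decay enzymes, 1 regulator, 9 target mRNAs and 6 immediate early genes. With at least 10 counts in every library, 959 genes, 1 regulator and 4 target mRNAs passed. Leaving out 1 replicate gave 26 to 383 genes, 26 to 331 with the fold, 0 decay enzymes, 0 to 4 target mRNAs, 0 to 1 regulators and 0 to 1 immediate early genes, with the lowest gene counts without replicate 2. The causes were not tested. None of the 9 genes passed in any of the 4 fits without a replicate. One planned estimate of the spread is the default of this edgeR version and equals the values given.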
